A study of Mus musculus with 18 samples.

Results

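The genes described are 49 genes of the cell cycle and DNA replication in T cells sorted from mouse bone marrow. The members are listed genes matched by symbol, the list having been drawn up with earlier results of these data known, and they were divided by role into 16 replication genes, 21 mitosis genes and 12 genes of G1 control. Of the 49, 47 were among the 23930 genes with counts. Expression of Pcna and Ccnb1 was not analysed here, while their promoter windows were. Expression was high enough to test for 45 of the 47 (14 replication, 19 mitosis and 12 G1 control genes). The other two, Gins2 and Stmn1, stayed under 1 CPM in all 18 libraries. CPM, the usual count-per-total unit, divides a gene's reads by the scaled total of its library.

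CD4 and CD8 T cells were isolated by fluorescence-activated sorting from 3 kinds of mice, with 3 mice of each kind, so that each of the 6 groups held 3 libraries. The first kind was pMT-10, a transgenic line in which zinc drives overexpression of interleukin 10 (IL-10) through a metallothionein promoter, given zinc in the drinking water for 30 days. The second was C57BL/6, without the transgene, on the same zinc water for 30 days, and the third was pMT-10 on control water, here the transgenic control. The metallothionein promoter is not restricted to T cells, so that IL-10 can come from other tissues of these mice. The labels give no age. All 12 libraries of zinc-fed mice were run on one sequencing chip and the 6 libraries of pMT-10 on control water on another, so that zinc and chip cannot be told apart between the pMT-10 groups. The comparison with C57BL/6 differs in transgene, strain and sex but not in chip or water. Induced IL-10, strain and sex cannot be told apart there.

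Dividing cells license their replication origins with the MCM helicase in G1, copy DNA in S phase with nucleotides made by enzymes such as ribonucleotide reductase, and then build a spindle and separate the chromosomes in mitosis. E2F factors drive the genes of the G1 to S step when cyclin-dependent kinases release the brake held by the retinoblastoma family, whereas many mitosis genes are switched on later through a promoter element called CHR, often accompanied by CCAAT boxes. T cells at rest keep mitosis genes low, and memory T cells in the bone marrow are known as largely resting cells that can be recalled into division.

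The promoters of 4 members are shown because they carry the elements named above. Each is the stretch of 250 bases before the transcript start, from RefSeq (GRCm38.p6), in lower case with motif matches in capitals. The E2F search used the letters TTTGGCGC, TTTCCCGC, TTTGCCGC and TTTCGCGC, the CHR search TTTGAA, and the CCAAT search CCAAT, each on both strands. Mcm6, a replication gene, was chosen after its matches were seen and does not stand for the other replication genes. Uhrf1, a replication gene, and Top2a and Mki67, mitosis genes, were among the 3 genes of each role with the lowest p in CD8 cells against C57BL/6. The other 3 of these, Rrm2, Tk1 and Birc5, are not shown, since Rrm2 holds 1 CCAAT box in the same stretch and Tk1 and Birc5 hold no match. The Mcm6 promoter lies on the minus strand at chr1:128359706-128359955, that of Uhrf1 on the plus strand at chr17:56304063-56304312, that of Top2a on the minus strand at chr11:99024190-99024439 and that of Mki67 on the minus strand at chr7:135716380-135716629. In GENCODE vM21 no gene overlaps the Mcm6, Top2a and Mki67 stretches, and that of Uhrf1 lies in an intron of its longer transcripts.
Mcm6: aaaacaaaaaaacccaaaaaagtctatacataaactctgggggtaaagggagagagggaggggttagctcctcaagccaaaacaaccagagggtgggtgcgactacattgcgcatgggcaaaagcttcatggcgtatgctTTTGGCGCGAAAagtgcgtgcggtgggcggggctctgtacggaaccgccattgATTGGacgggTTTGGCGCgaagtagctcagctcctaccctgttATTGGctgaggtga
Uhrf1: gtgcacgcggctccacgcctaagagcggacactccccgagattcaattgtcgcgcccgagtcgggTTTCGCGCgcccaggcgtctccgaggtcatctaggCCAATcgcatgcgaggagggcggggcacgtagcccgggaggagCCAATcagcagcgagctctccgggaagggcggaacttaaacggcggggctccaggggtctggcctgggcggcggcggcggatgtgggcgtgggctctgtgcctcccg
Top2a: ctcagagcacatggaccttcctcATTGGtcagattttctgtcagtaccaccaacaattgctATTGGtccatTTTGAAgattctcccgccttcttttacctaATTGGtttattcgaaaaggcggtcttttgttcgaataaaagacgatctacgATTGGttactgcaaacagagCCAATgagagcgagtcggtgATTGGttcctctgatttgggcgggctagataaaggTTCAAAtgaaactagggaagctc
Mki67: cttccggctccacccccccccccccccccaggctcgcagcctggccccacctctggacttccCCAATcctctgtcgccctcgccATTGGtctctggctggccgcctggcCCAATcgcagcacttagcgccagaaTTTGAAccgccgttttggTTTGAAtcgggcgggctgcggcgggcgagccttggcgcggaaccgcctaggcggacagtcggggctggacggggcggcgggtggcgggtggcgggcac

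In the Mcm6 sequence the first capital run holds E2F letters on both strands that overlap, starting at bases -110 and -106 from the transcript start, and another E2F match starts at base -47 between CCAAT boxes at -57 and -14. Uhrf1 has a second annotated start, and the window shown holds an E2F match at base -185 with CCAAT boxes at -150 and -107. The stretch before its other start, at chr17:56303087-56303336, is not shown and holds a CCAAT box at -30 but no E2F match. Top2a holds CHR letters at bases -179 and -23 among 6 CCAAT boxes, and Mki67 holds CHR letters at -116 and -98 below 3 CCAAT boxes at -188, -166 and -141. Windows of 300 bases, of which 50 lie after the start, were on record for 40 members, giving 46 windows. E2F letters occurred in 7 of 16 replication windows (43.75%), in 1 of 16 mitosis windows (6.25%) and in 2 of 14 G1 control windows, against 2.265% of all 32851 windows. CHR letters occurred in 11 of 16 mitosis windows (68.75%) and in 1 of 16 replication windows, against 17.89% of all windows. CCAAT boxes occurred in 14 of 16 mitosis windows and 11 of 16 replication windows, against 37.41% of all windows. Of 99 matches in the members' windows, 2 shared a base with a match of another motif. A match describes the letters only and does not show that a factor binds there.

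**Figure D1:**
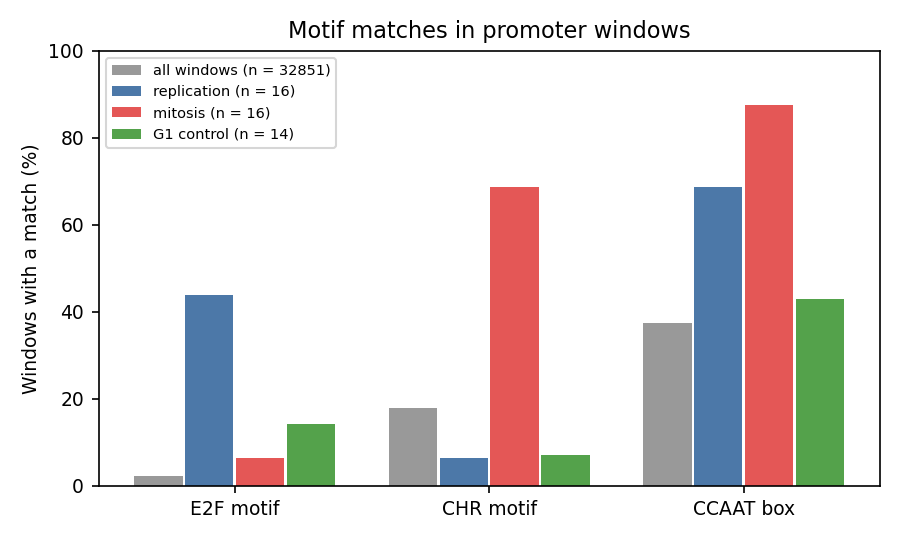
Share of 300-base promoter windows with at least 1 match (y axis, %) for the 3 motifs, for all 32851 windows and for windows of the replication, mitosis and G1 control members. E2F letters were in 43.75% of replication windows and CHR letters in 68.75% of mitosis windows, against 2.265% and 17.89% of all windows.

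The sorted cells carried the markers of their labels. Cd4 was at 1654 to 3405 CPM in CD4 libraries and at most 5.56 CPM in CD8 libraries, and Cd8a at 1817 to 2572 CPM in CD8 libraries and at most 10.03 CPM in CD4 libraries. Il10, which cannot be assigned to the transgene or the native gene, was at 16.6 to 26.0 CPM in zinc-fed pMT-10 CD4 libraries against 1.40 to 8.25 CPM in the other CD4 libraries. In CD8 libraries it was at 3.20 to 22.4 CPM in zinc-fed pMT-10 and had no count in the other CD8 libraries. Total counts were 10546798 to 18519474 per library, so that 1 CPM stood for 10.2 to 18.9 reads. CPM compare 1 gene between libraries, not genes with each other. In sorted pools, more cells in cycle and more RNA per cycling cell cannot be told apart.

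The summed level of the mitosis genes was higher in zinc-fed pMT-10 libraries than in both control groups in each cell type. Summed over the 20 mitosis genes with counts, CD4 libraries held 90.4, 134 and 206 CPM in zinc-fed C57BL/6, 106, 90.9 and 102 in pMT-10 on control water and 500.2, 348 and 395 in zinc-fed pMT-10. The CD8 libraries held 41.8, 75.1 and 54.3 CPM in zinc-fed C57BL/6, 55.2, 50.2 and 56.9 in pMT-10 on control water and 158, 265 and 265 in zinc-fed pMT-10. In both cell types every zinc-fed pMT-10 library was above every control library. The 15 replication genes with counts summed to 612, 675 and 698 CPM in zinc-fed C57BL/6, 679, 602 and 682 in pMT-10 on control water and 993, 917 and 908 in zinc-fed pMT-10 CD4 libraries, the last above both controls. In CD8 libraries their sums were 798, 889 and 998 CPM in zinc-fed C57BL/6 and 769, 784 and 758 in pMT-10 on control water. They were 873, 1098 and 1014 CPM in zinc-fed pMT-10, which overlapped with zinc-fed C57BL/6. Genes with many reads weigh most in such sums. In zinc-fed C57BL/6 CD8 libraries, Mcm7, Mcm6 and Mcm2 had means of 218, 179 and 136 CPM beside a mean sum of 895 CPM.

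**Figure D2:**
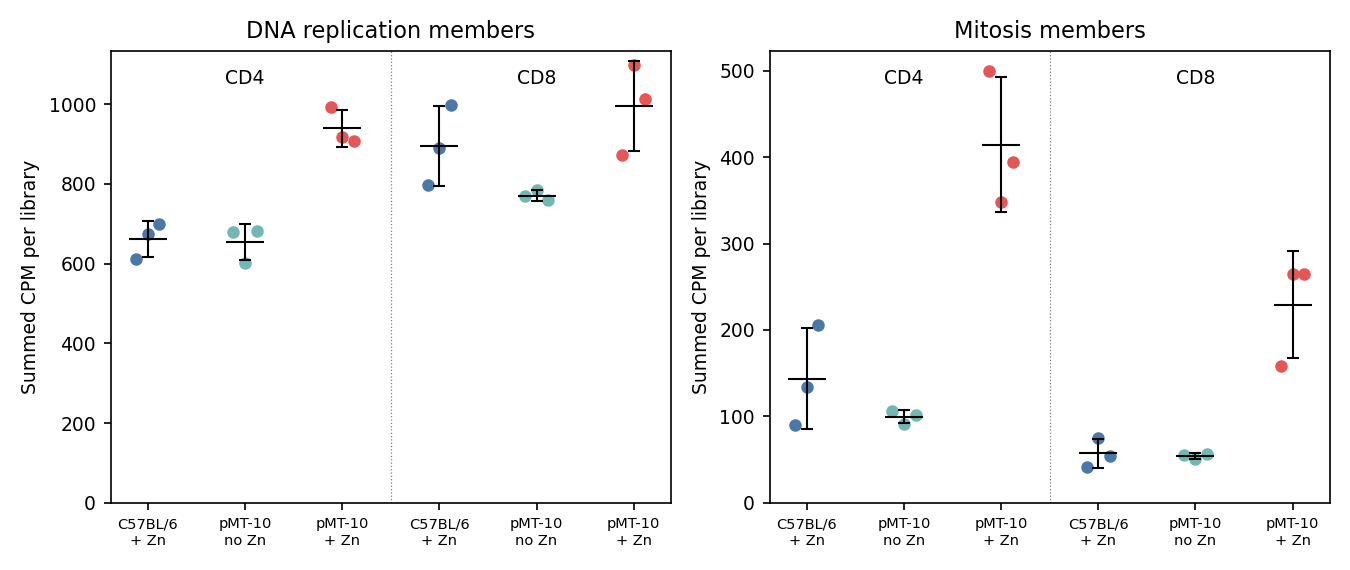
Summed CPM of the replication members (left) and mitosis members (right) in each of the 18 libraries (points), with the mean and SD of each group of 3 in black, by kind of mouse and cell type. The mitosis sums of zinc-fed pMT-10 CD4 libraries (348 to 500.2 CPM) and CD8 libraries (158 to 265 CPM) lie above those of both control groups of the cell type.

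Tests used edgeR's quasi-likelihood fit over all 18 libraries and all 11316 genes with enough counts, and a gene was called where its Benjamini-Hochberg adjusted p was under 0.05. In CD4 cells, 17 of 45 members rose and 1 fell against zinc-fed C57BL/6, where 9.29% of all genes tested rose and 9.40% fell. Those that rose were 6 of 14 replication, 7 of 19 mitosis and 4 of 12 G1 control genes. The median log2 change was 0.66 for replication, 1.54 for mitosis and 0.52 for G1 control genes, against -0.05 for all genes. Against pMT-10 on control water, 26 members rose and 2 fell in CD4 cells, against 9.38% and 9.40% of all genes, with medians of 0.61, 2.20 and 0.81 beside -0.05. In CD8 cells, 15 members rose and none fell against zinc-fed C57BL/6, where 5.68% of all genes rose and 3.13% fell. These were 3 replication, 9 mitosis and 3 G1 control genes, and the medians were 0.25, 1.88 and 0.40, against 0.00 for all genes. Against pMT-10 on control water, 16 members rose in CD8 cells and none fell, where 5.10% of all genes rose and 2.64% fell. The role medians were 0.36, 2.04 and 0.44, against 0.00 for all genes. The 2 comparisons of each cell type share the zinc-fed pMT-10 libraries.

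The log2 change of every mitosis gene tested was above 0 against zinc-fed C57BL/6 in both cell types, 19 of 19, including those that did not pass the test. Aurka, with a log2 change of -0.20 in CD8 cells against pMT-10 on control water, was the 1 mitosis gene below 0 against that control. Leaving out 1 library at a time moved the counts of calls. The CD4 count of 18 ranged from 13 to 19 and the CD8 count of 15 from 10 to 16 against zinc-fed C57BL/6. Against pMT-10 on control water the CD4 count of 28 ranged from 17 to 25, with the fewest when library 2 or 3 of the control group was left out, and it was 18 without zinc-fed pMT-10 CD4 library 1 or 3. The CD8 count of 16 ranged from 11 to 15. A count of 15 against zinc-fed C57BL/6 fell to 10 in CD8 cells without C57BL/6 library 1 or zinc-fed pMT-10 library 2. In fits of CD8 libraries alone, Cdk1, Cdk2, Cdk6, Tk1 and Ube2c were not called against C57BL/6, nor E2f1 and Tk1 against the transgenic control. Cdkn1a, called against the transgenic control in the main fit, was not among the genes tested in these fits. With scaling by library size alone, Cdc6, Cdkn2c, Dut, Mcm2 and Mcm3 lost their CD4 calls against the transgenic control and Tk1 its CD4 call against C57BL/6, and with RLE factors Cdk2 and Cdkn1b lost theirs against the transgenic control.

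**Figure D3:**
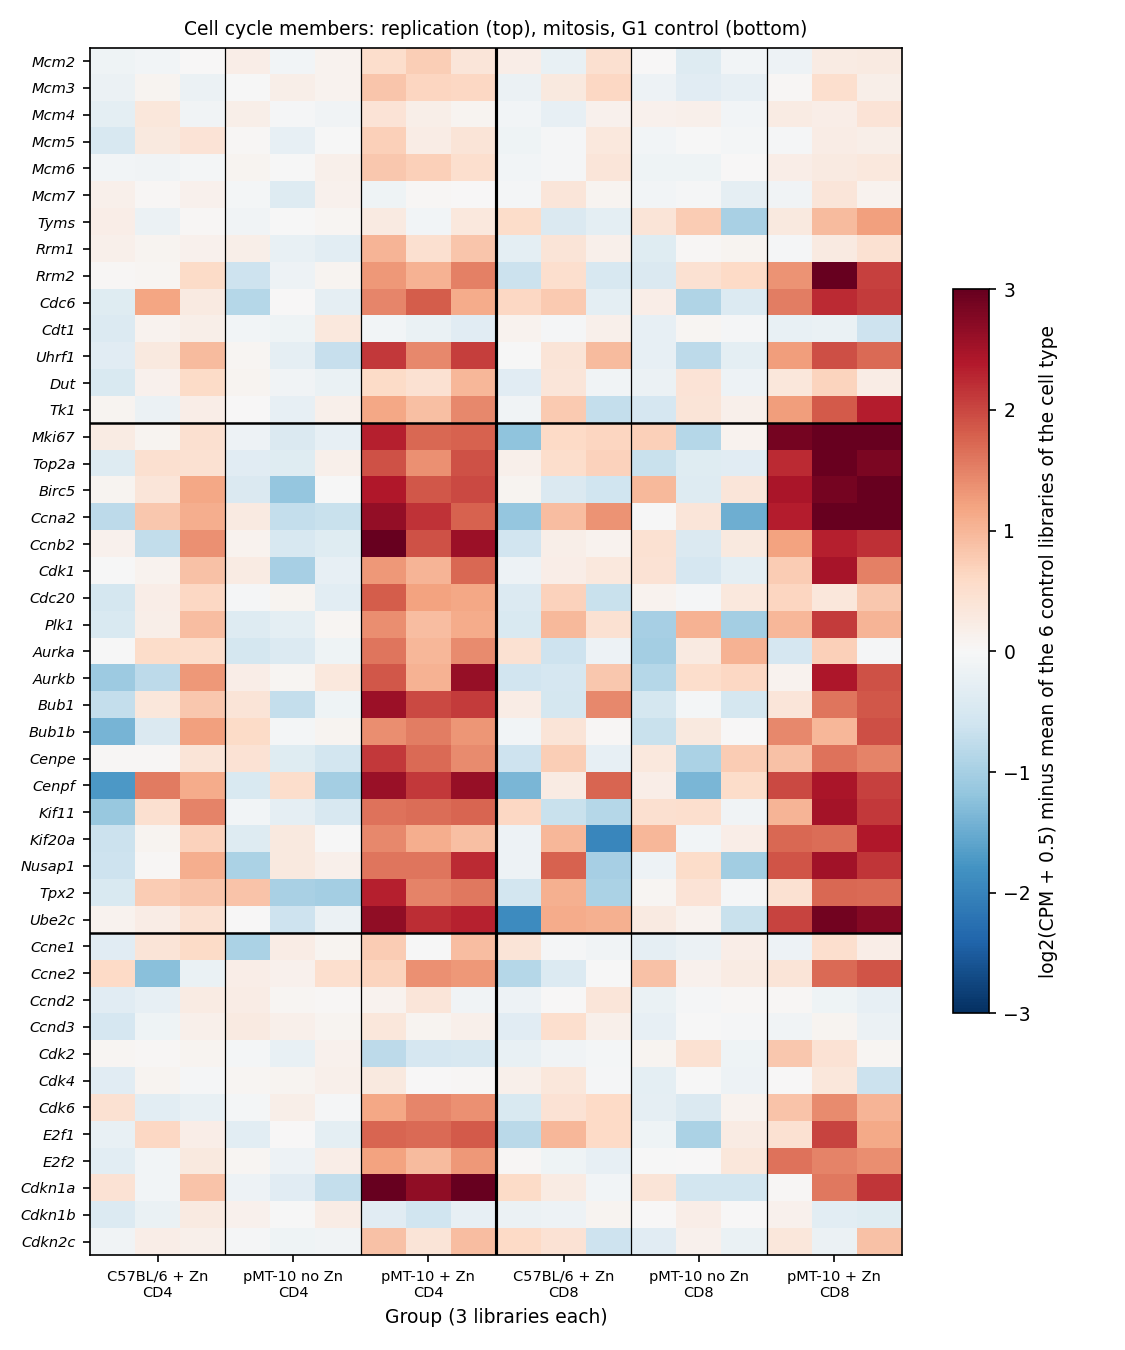
Each row is 1 of the 45 tested members and each column 1 of the 18 libraries. Colour gives log2(CPM + 0.5) minus the mean of the 6 control libraries of the same cell type, limited to between -3 and 3. The mitosis block is mostly red in the zinc-fed pMT-10 columns of both cell types, with Aurka in CD8 cells an exception. The rows Mcm2, Mcm3 and Mcm6 are redder in CD4 than in CD8 columns.

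Among the replication genes, the MCM subunits Mcm2, Mcm3 and Mcm6 rose in CD4 cells. Mcm6, a subunit of the replicative helicase at chr1:128331590-128359664, was at 153, 150.4 and 155 CPM in zinc-fed C57BL/6 CD4 libraries, 170.3, 161 and 179 in pMT-10 on control water and 283, 265 and 227 in zinc-fed pMT-10. Its log2 change in CD4 cells was 0.76 ± 0.13 (SE, adjusted p = 0.000225) against C57BL/6 and 0.60 ± 0.13 (SE, adjusted p = 0.00189) against the transgenic control. The zinc-fed pMT-10 CD4 libraries were all above the controls. Its CD8 levels were 159, 163 and 216 CPM in C57BL/6, 153, 152 and 169 in the transgenic control and 192, 201 and 207 in zinc-fed pMT-10, with overlap between zinc-fed mice of both strains. Mcm2 and Mcm3, other subunits of the ring, rose in CD4 cells by 0.63 and 0.80 (log2) against C57BL/6 and by 0.48 and 0.61 against the transgenic control. The Mcm2 call against the transgenic control was lost without any one of the 6 libraries, and that of Mcm3 without zinc-fed pMT-10 library 1 or control library 1. Mcm4, Mcm5 and Mcm7 were not called in CD4 cells, and none of Mcm2 to Mcm7 was called in CD8 cells against either control. In CD8 cells 1 of the 6 against C57BL/6 and 2 of the 6 against the transgenic control had an unadjusted p under 0.05, and DESeq2 called 0 and 2. The difference between the cell types was not established. The CD8 change minus the CD4 change against C57BL/6 was -0.84 ± 0.25 (SE, adjusted p = 0.0511) for Mcm3 and -0.60 ± 0.18 (SE, adjusted p = 0.0542) for Mcm6.

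Of 5 genes of nucleotide supply, Tk1 rose in both cell types against both controls. Tyms was called in neither cell type against either control. Rrm2, the regulated subunit of ribonucleotide reductase at chr12:24708241-24714146, was at 2.23, 5.61 and 2.54 CPM in zinc-fed C57BL/6 CD8 libraries, 2.69, 5.37 and 5.93 in pMT-10 on control water and 10.4, 40.6 and 17.3 in zinc-fed pMT-10. All zinc-fed pMT-10 CD8 libraries were above the controls, and library 2 was far above the other two. The log2 change in CD8 cells was 2.73 ± 0.45 (SE, adjusted p = 0.000392) against C57BL/6 and 2.28 ± 0.44 (SE, adjusted p = 0.00157) against the transgenic control, and without library 2 it was 2.03 and 1.59. In CD4 libraries Rrm2 was at 8.74, 8.95 and 13.04 CPM in C57BL/6, 5.43, 7.68 and 9.16 in the transgenic control and 21.7, 18.2 and 25.2 in zinc-fed pMT-10, and only the difference from the transgenic control passed the test (1.55 ± 0.42 SE, adjusted p = 0.0117, against 1.08 ± 0.41 (SE, adjusted p = 0.0746) from C57BL/6). That call was lost without control library 1.

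Tk1, the thymidine kinase of cycling cells, was at 1.37, 2.99 and 0.736 CPM in C57BL/6 CD8 libraries, 0.917, 2.15 and 1.75 in pMT-10 on control water and 4.35, 6.78 and 9.81 in zinc-fed pMT-10, without overlap. Its log2 change in CD8 cells was 2.07 ± 0.43 (SE, adjusted p = 0.00344) against C57BL/6, or 2.75 without C57BL/6 library 2, and 2.14 ± 0.43 (SE, adjusted p = 0.0025) against the transgenic control. In CD4 libraries it was at 8.66, 7.18 and 9.43 CPM in C57BL/6, 8.33, 6.83 and 9.16 in the transgenic control and 18.9, 15.7 and 23.1 in zinc-fed pMT-10, also without overlap. Its CD4 changes of 1.19 and 1.24 (log2) passed the test, but the call against C57BL/6 was lost without zinc-fed pMT-10 library 1 or 3 or C57BL/6 library 1, 2 or 3 and that against the transgenic control without zinc-fed pMT-10 library 1 or 3 or control library 1, 2 or 3. Rrm1, the large subunit of the reductase, rose in CD4 cells by 0.69 against C57BL/6, a call lost without zinc-fed pMT-10 library 1 or 3 or C57BL/6 library 1 or 2, and by 0.92 against the transgenic control. Dut, which removes dUTP, rose in CD4 cells against the transgenic control only, by 0.77; the call was lost without zinc-fed pMT-10 library 3 or control library 2 or 3. In CD8 cells neither was called, with log2 changes against C57BL/6 and the transgenic control of 0.14 and 0.31 for Rrm1 and 0.43 and 0.38 for Dut. Tyms, thymidylate synthase, was called in none of the 4 comparisons, with log2 changes from 0.15 to 0.92.

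Uhrf1, which takes part in copying DNA methylation onto new strands, lies at chr17:56303321-56323486. It was at 9.42, 14.9 and 23.9 CPM in C57BL/6 CD4 libraries and 12.7, 9.92 and 7.32 in pMT-10 on control water. In zinc-fed pMT-10 CD4 libraries it was at 54.6, 33.7 and 52.3 CPM. CD8 libraries held it at 16.3, 21.6 and 31.99 CPM in C57BL/6, 13.6, 9.27 and 13.3 in the transgenic control and 39.9, 63.5 and 54.01 in zinc-fed pMT-10, and in both cell types the zinc-fed pMT-10 libraries were above all controls. The log2 change was 1.55 ± 0.31 (SE, adjusted p = 0.00123) in CD4 and 1.17 ± 0.31 (SE, adjusted p = 0.0194) in CD8 cells against C57BL/6, the latter lost without zinc-fed pMT-10 library 2 or 3 or C57BL/6 library 1 or 2. Measured against the transgenic control it was 2.23 ± 0.32 (SE, adjusted p = 3.8e-05) in CD4 and 2.11 ± 0.32 (SE, adjusted p = 0.000138) in CD8 cells. Cdc6, which loads the helicase onto origins, was scarce, at 2.61, 3.46 and 1.95 CPM in zinc-fed pMT-10 CD4 libraries against 0.380, 2.08 and 0.864 in C57BL/6 and 0.129, 0.640 and 0.445 in the transgenic control. In CD8 libraries it was at 2.22, 3.95 and 3.51 CPM against 0.944, 1.12 and 0.268 in C57BL/6 and 0.590, 0 and 0.212 in the transgenic control. Only the differences from the transgenic control were called (adjusted p = 0.0438 and 0.0258), in CD4 cells lost without any one library and in CD8 cells without zinc-fed pMT-10 library 2 or 3 or control library 2 or 3. In CD8 cells the log2 change of 3.49 became 4.60 without control library 1. Cdt1, the other loader, was not called in any of the 4 comparisons, and its log2 changes lay between -0.42 and -0.18.

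Among the mitosis genes, Top2a, the topoisomerase that untangles chromosomes, lies at chr11:98992943-99024189. It was at 6.26, 8.32 and 9.37 CPM in C57BL/6 CD8 libraries, 3.34, 4.20 and 4.29 in pMT-10 on control water and 28.4, 47.2 and 42.5 in zinc-fed pMT-10. Its CD4 levels were 10.9, 20.1 and 19.95 CPM in C57BL/6, 11.3, 10.99 and 15.9 in the transgenic control and 55.5, 37.7 and 55.1 in zinc-fed pMT-10. The zinc-fed pMT-10 libraries were above every control in both cell types. The log2 change against C57BL/6 was 2.30 ± 0.27 (SE, adjusted p = 9.02e-06) in CD8 and 1.54 ± 0.26 (SE, adjusted p = 0.000209) in CD4 cells, and against the transgenic control 3.32 ± 0.29 (SE, adjusted p = 5.01e-07) and 1.96 ± 0.26 (SE, adjusted p = 1.72e-05).

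Mki67, whose product Ki-67 coats mitotic chromosomes and is the usual marker of cells in cycle, lies at chr7:135689784-135716361. It was at 0.429, 2.71 and 2.81 CPM in C57BL/6 CD8 libraries, 3.01, 0.683 and 1.80 in pMT-10 on control water and 15.2, 27.3 and 21.4 in zinc-fed pMT-10. In CD4 libraries it was at 15.4, 13.6 and 18.2 CPM in C57BL/6, 11.6, 9.49 and 10.9 in the transgenic control and 67.2, 43.4 and 44.96 in zinc-fed pMT-10, and neither cell type showed overlap between zinc-fed pMT-10 and controls. The log2 change against C57BL/6 was 3.40 ± 0.44 (SE, adjusted p = 3.35e-05) in CD8 and 1.72 ± 0.38 (SE, adjusted p = 0.00286) in CD4 cells. Measured against the transgenic control it was 3.48 ± 0.44 (SE, adjusted p = 2.14e-05) and 2.28 ± 0.39 (SE, adjusted p = 0.000255).

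Birc5 encodes survivin, a subunit of the complex that holds Aurora B on chromosomes, and lies at chr11:117849251-117855743. It was at 2.75, 1.78 and 1.54 CPM in C57BL/6 CD8 libraries, 5.57, 1.85 and 3.50 in pMT-10 on control water and 16.3, 22.2 and 36.1 in zinc-fed pMT-10. Its CD4 levels were 11.3, 13.97 and 24.6 CPM in C57BL/6, 7.82, 4.48 and 10.6 in the transgenic control and 58.8, 40.3 and 43.6 in zinc-fed pMT-10. Here too all zinc-fed pMT-10 libraries lay above the controls. The log2 change against C57BL/6 was 3.63 ± 0.43 (SE, adjusted p = 1.25e-05) in CD8 and 1.52 ± 0.37 (SE, adjusted p = 0.00599) in CD4 cells, and against the transgenic control 2.75 and 2.64.

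**Figure D4:**
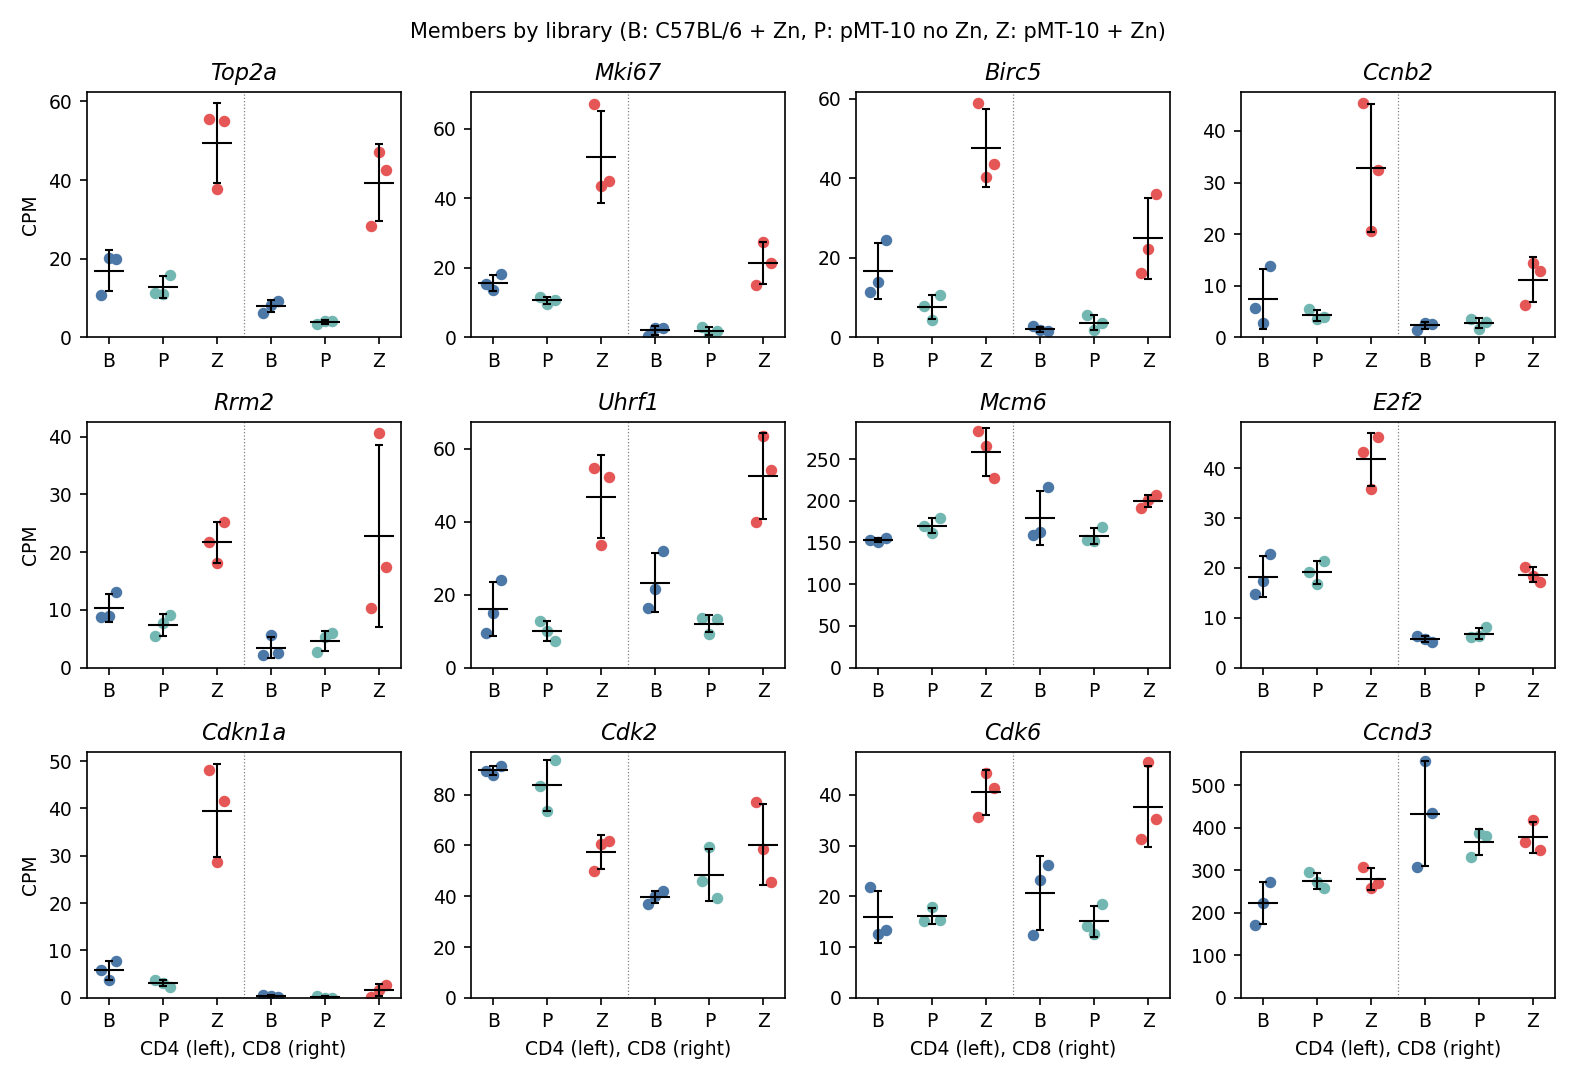
CPM of 12 members in each library (points) with the mean and SD of each group of 3 in black, for CD4 (left of the dotted line) and CD8 (right); B is zinc-fed C57BL/6, P pMT-10 on control water and Z zinc-fed pMT-10. Top2a, Mki67, Birc5 and Uhrf1 are higher in all Z libraries of both cell types, Cdk2 is lower in Z than in B and P in CD4, and Ccnd3 overlaps between groups.

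Mitotic cyclins and Ube2c rose as well. Ccnb2, a mitotic B-type cyclin, was at 5.62, 2.86 and 13.9 CPM in C57BL/6 CD4 libraries, 5.49, 3.52 and 3.88 in pMT-10 on control water and 45.4, 20.6 and 32.5 in zinc-fed pMT-10. Its log2 change in CD4 cells was 2.14 ± 0.46 (SE, adjusted p = 0.00211) against C57BL/6, or 2.95 without C57BL/6 library 3, and 2.94 against the transgenic control. Its CD8 levels were 1.46, 2.80 and 2.68 CPM in C57BL/6, 3.54, 1.66 and 3.07 in the transgenic control and 6.23, 14.4 and 12.9 in zinc-fed pMT-10, with log2 changes of 2.26 and 1.99. All zinc-fed pMT-10 libraries were above the controls, and the call against the transgenic control in CD8 cells was lost without control library 2.

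Ccna2, the cyclin of S phase and mitotic entry, was at 0.257, 2.71 and 3.75 CPM in C57BL/6 CD8 libraries, 1.18, 1.66 and 0.106 in pMT-10 on control water and 8.11, 24.2 and 22.7 in zinc-fed pMT-10. Its log2 change in CD8 cells was 3.01 ± 0.73 (SE, adjusted p = 0.0146) against C57BL/6, or 3.64 without C57BL/6 library 3, and 4.32 ± 0.81 (SE, adjusted p = 0.00198) against the transgenic control, or 3.70 without control library 3. In CD4 libraries it was at 2.74, 9.18 and 11.2 CPM in C57BL/6, 6.20, 2.88 and 2.99 in the transgenic control and 34.1, 24.5 and 18.4 in zinc-fed pMT-10, and only the change against the transgenic control passed the test (2.68 ± 0.70 SE, adjusted p = 0.0113, against 1.73 ± 0.67 (SE, adjusted p = 0.0849) from C57BL/6). That call was lost without control library 2 or 3. No zinc-fed pMT-10 library overlapped with a control of its cell type.

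Ube2c, the enzyme that charges ubiquitin for the anaphase-promoting complex, was at 7.37, 8.03 and 9.43 CPM in C57BL/6 CD4 libraries, 6.78, 4.21 and 5.92 in pMT-10 on control water and 45.2, 33.5 and 35.2 in zinc-fed pMT-10. CD8 libraries held it at 0.172, 4.86 and 4.68 CPM in C57BL/6, 2.49, 2.15 and 1.06 in the transgenic control and 9.56, 17.8 and 16.2 in zinc-fed pMT-10, and again the groups did not overlap. The log2 changes against C57BL/6 were 2.20 ± 0.51 (SE, adjusted p = 0.0042) in CD4 and 2.15 ± 0.53 (SE, adjusted p = 0.0138) in CD8 cells. They were, against the transgenic control, 2.75 and 2.95.

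Calls of the remaining mitosis genes often depended on 1 library. Cdk1, the kinase that starts mitosis, rose in CD8 cells by 1.81 and 2.07 (log2) against the 2 controls, and by 1.22 and 1.47 without zinc-fed pMT-10 library 2. The call against C57BL/6 was lost without zinc-fed pMT-10 library 2 or C57BL/6 library 1, 2 or 3, and that against the transgenic control without zinc-fed pMT-10 library 2 or control library 2 or 3. In CD4 cells it rose against the transgenic control, by 1.75, a call lost without zinc-fed pMT-10 library 3 or control library 2. Cdc20, which activates the anaphase-promoting complex, rose in CD4 cells by 1.30 and 1.57 and was not called in CD8 cells. The first of these calls was lost without library 1 of either group. Cenpe, a kinetochore motor, rose in CD4 cells by 1.78 and 2.10, the first call lost without zinc-fed pMT-10 library 1 or C57BL/6 library 1 or 2 and the second without zinc-fed pMT-10 library 1 or control library 2 or 3.

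The spindle motors Kif11 and Kif20a rose in CD8 cells against C57BL/6, by 2.74 and 2.002 (log2). These became 3.95 without C57BL/6 library 1 for Kif11 and 2.96 without C57BL/6 library 2 for Kif20a, and the calls were lost without zinc-fed pMT-10 library 2 or 3 or C57BL/6 library 2 or 3 for Kif11 and without zinc-fed pMT-10 library 3 or C57BL/6 library 1 for Kif20a. Kif11, Tpx2 (a spindle assembly factor) and Aurka (Aurora A, the kinase of the spindle poles) rose in CD4 cells against the transgenic control. Their log2 changes were 2.36, 2.20 and 1.83. Kif11 lost this call without zinc-fed pMT-10 library 1 or 3 or control library 1, 2 or 3. Tpx2 lost it without zinc-fed pMT-10 library 1 or 3 or control library 2 or 3, and stood at 3.46 without control library 1. Bub1b, a spindle checkpoint kinase, rose in CD8 cells against the transgenic control only, by 1.73, a call lost without zinc-fed pMT-10 library 1 or 3 or control library 1 or 3. Plk1, Aurkb, Bub1, Cenpf and Nusap1 were called in none of the 4 comparisons. Bub1, a checkpoint kinase, had a log2 change of 2.75 in CD4 cells against C57BL/6 (adjusted p = 0.153), on 0, 0.540 and 0.943 CPM in C57BL/6, 0.581, 0 and 0.255 in the transgenic control and 4.37, 2.75 and 2.997 in zinc-fed pMT-10 CD4 libraries. In CD8 libraries it was at 0.343, 0 and 1.47 CPM in C57BL/6, 0, 0.195 and 0 in the transgenic control and 0.427, 1.69 and 2.12 in zinc-fed pMT-10, where zinc-fed pMT-10 overlapped with C57BL/6.

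Among the G1 control genes, E2f2 rose in all 4 comparisons. E2f2, a transcription factor of the activating E2F group at chr4:136172394-136196057, was at 6.44, 5.70 and 5.15 CPM in C57BL/6 CD8 libraries, 6.16, 6.24 and 8.05 in pMT-10 on control water and 20.2, 18.4 and 17.3 in zinc-fed pMT-10. Its CD4 levels were 14.7, 17.4 and 22.8 CPM in C57BL/6, 19.2, 16.7 and 21.4 in the transgenic control and 43.3, 35.9 and 46.2 in zinc-fed pMT-10, without overlap in either cell type. The log2 change against C57BL/6 was 1.69 ± 0.22 (SE, adjusted p = 2.52e-05) in CD8 and 1.19 ± 0.21 (SE, adjusted p = 0.000259) in CD4 cells, and against the transgenic control 1.44 and 1.13. E2f1, its relative, was at 1.75, 3.55 and 2.51 CPM in C57BL/6 CD4 libraries, 1.61, 2.13 and 1.65 in pMT-10 on control water and 8.29, 7.97 and 8.92 in zinc-fed pMT-10, without overlap. It rose in CD4 cells by 1.69, a call lost without zinc-fed pMT-10 library 3 or C57BL/6 library 1 or 3, and by 2.21. In CD8 libraries, at 1.97, 8.13 and 6.09 CPM in C57BL/6, 3.47, 1.76 and 4.66 in the transgenic control and 5.46, 17.04 and 9.002 in zinc-fed pMT-10, zinc-fed pMT-10 overlapped with C57BL/6, and the call against the transgenic control (1.65) was lost without zinc-fed pMT-10 library 2 or 3 or control library 1, 2 or 3.

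Cdk6, a kinase that acts with D cyclins in early G1, was at 21.8, 12.6 and 13.4 CPM in C57BL/6 CD4 libraries, 15.1, 17.9 and 15.3 in pMT-10 on control water and 35.7, 44.4 and 41.4 in zinc-fed pMT-10. Its CD8 levels were 12.4, 23.2 and 26.2 CPM in C57BL/6, 14.2, 12.6 and 18.5 in the transgenic control and 31.3, 46.6 and 35.2 in zinc-fed pMT-10. The zinc-fed pMT-10 libraries were above all controls in both cell types. The log2 changes against C57BL/6 were 1.34 ± 0.26 (SE, adjusted p = 0.000863) in CD4 and 0.87 ± 0.26 (SE, adjusted p = 0.0393) in CD8 cells, the latter lost without zinc-fed pMT-10 library 2 or 3 or C57BL/6 library 1. They were, against the transgenic control, 1.33 and 1.31. Its partners were not called: for the D cyclins Ccnd2 and Ccnd3 and the sister kinase Cdk4 the log2 changes in the 4 comparisons lay between -0.21 and 0.33. The E cyclins were not called either. Ccne2 had a large log2 change in CD8 cells against C57BL/6 (3.24 ± 1.03 SE, adjusted p = 0.0543), on 0, 0.187 and 0.402 CPM in C57BL/6, 1.18, 0.488 and 0.583 in the transgenic control and 0.683, 2.45 and 2.85 in zinc-fed pMT-10. In CD4 libraries it was at 1.60, 0.0772 and 0.707 CPM in C57BL/6, 1.10, 1.01 and 1.46 in the transgenic control and 1.70, 3.10 and 2.92 in zinc-fed pMT-10, with log2 changes of 1.68 and 1.10.

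Of the inhibitors, Cdkn1a had the largest log2 change of the members in CD4 cells in both comparisons. It encodes p21, which binds cyclin-dependent kinases, and lies at chr17:29090976-29100727. It was at 5.78, 3.86 and 7.86 CPM in C57BL/6 CD4 libraries, 3.68, 3.20 and 2.35 in pMT-10 on control water and 48.2, 28.8 and 41.6 in zinc-fed pMT-10, far apart from both controls. The log2 change in CD4 cells was 2.76 ± 0.55 (SE, adjusted p = 0.00112) against C57BL/6 and 3.68 ± 0.57 (SE, adjusted p = 9.82e-05) against the transgenic control. CD8 libraries held it at 0.601, 0.374 and 0.201 CPM in C57BL/6, 0.459, 0 and 0 in the transgenic control and 0.256, 1.69 and 2.78 in zinc-fed pMT-10. The CD8 groups overlapped at these levels, and the call against the transgenic control (adjusted p = 0.0155) was lost without zinc-fed pMT-10 library 3, control library 2 or control library 3. Its log2 change of 3.26 ranged from 2.53 to 7.45 when 1 library was left out, the first without zinc-fed pMT-10 library 3 and the second without control library 1, and it was 2.55 without control library 3. Cdkn1b (p27), at 96.3, 87.6 and 102 CPM in pMT-10 on control water and 69.1, 57.6 and 73.95 in zinc-fed pMT-10 CD4 libraries, fell by 0.51 (log2) against the transgenic control, a call lost without any one library. Cdkn2c (p18) rose in CD4 cells against the transgenic control, by 0.85, a call lost without zinc-fed pMT-10 library 1 or 3 or control library 1, 2 or 3.

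Cdk2, the kinase of the G1 to S step at chr10:128697939-128705031, fell in CD4 and rose in CD8 cells against C57BL/6. It was singled out after its values were seen. It was at 89.4, 87.8 and 91.3 CPM in C57BL/6 CD4 libraries, 83.4, 73.7 and 93.7 in pMT-10 on control water and 49.9, 60.4 and 61.9 in zinc-fed pMT-10, where all libraries were below the controls. In CD8 libraries it was at 36.98, 40.003 and 41.9 CPM in C57BL/6, 45.8, 59.5 and 39.5 in the transgenic control and 76.96, 58.5 and 45.5 in zinc-fed pMT-10, above C57BL/6 but overlapping with the transgenic control. The log2 change against C57BL/6 was -0.64 ± 0.18 (SE, adjusted p = 0.0147) in CD4 and 0.60 ± 0.18 (SE, adjusted p = 0.0407) in CD8 cells. The CD8 call was lost without zinc-fed pMT-10 library 1 or 2 or C57BL/6 library 1, 2 or 3 and in a fit of CD8 libraries alone, and the CD4 call without zinc-fed pMT-10 library 1. Against the transgenic control the log2 change was -0.54 ± 0.18 (SE, adjusted p = 0.0377) in CD4 and 0.32 ± 0.18 (SE, adjusted p = 0.32) in CD8 cells, and this CD4 call was lost without zinc-fed pMT-10 library 1, 2 or 3 or control library 1 or 3.

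In the main fit, members whose CD4 and CD8 changes differed were no more frequent than among all genes, and no member passed against both controls. The CD8 change minus the CD4 change against C57BL/6 passed the test for 2 of 45 members, where 5.49% of all genes did. These were Cdk2, with a difference of 1.25 ± 0.26 (SE, adjusted p = 0.00725), and Birc5, with 2.11 ± 0.56 (SE, adjusted p = 0.0298). The Cdk2 difference kept its call in 12 of 12 fits that left out 1 library, with log2 values from 1.03 to 1.41, and the Birc5 difference lost it in 6 of 12: without C57BL/6 CD4 library 3, C57BL/6 CD8 library 2 or 3, zinc-fed pMT-10 CD4 library 1 or 3, or zinc-fed pMT-10 CD8 library 3. Relative to the transgenic control 1 of 45 passed, where 3.78% of all genes did. This was Top2a, with 1.36 ± 0.37 (SE, adjusted p = 0.0448), and it lost its call in 11 of 12 fits, all but that without zinc-fed pMT-10 CD8 library 1. For Birc5 the difference against the transgenic control was 0.10 ± 0.53 (SE, adjusted p = 0.953) and for Cdk2 0.87 ± 0.25 (SE, adjusted p = 0.0579). These counts depended on the processing: against C57BL/6, DESeq2 called 5 members, RLE factors 4 and the fit without a filter on low counts 5, and relative to the transgenic control DESeq2 and the fit without a filter called 3 each. The labels do not say which CD4 and CD8 libraries came from the same mouse.

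**Figure D5:**
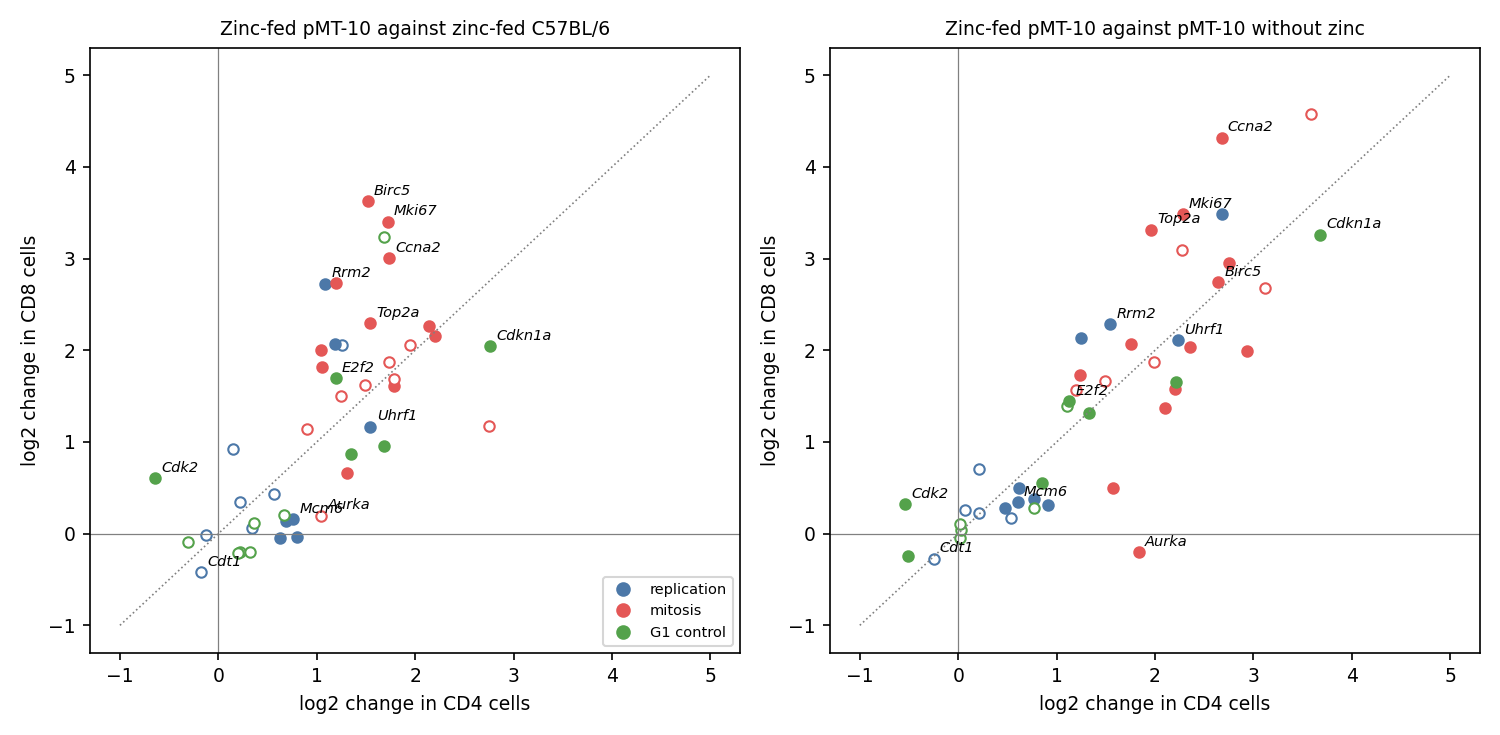
log2 change of each of the 45 tested members in CD4 cells (x axis) and CD8 cells (y axis), zinc-fed pMT-10 relative to C57BL/6 on zinc (left) and against pMT-10 on control water (right), coloured by role and filled where called in at least 1 cell type; the dotted line marks equal changes. The mitosis genes lie above 0 on both axes, except Aurka at a CD8 change of -0.20 in the right plot. The MCM genes lie at CD8 changes from -0.04 to 0.35 on the left and from 0.17 to 0.49 on the right, and Cdk2 lies left of 0 in CD4 cells.

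No member was called between pMT-10 on control water and zinc-fed C57BL/6 in CD4 cells, where 0.141% of all genes were, or in CD8 cells, where 0.0972% were. DESeq2 also called 0 in each. An unadjusted p under 0.05 was found for 2 members in CD4 cells (Birc5 and Uhrf1) and 4 in CD8 cells (Top2a, Mcm3, Uhrf1 and Bub1), all lower in pMT-10 on control water. The median log2 difference of the mitosis genes was -0.59 in CD4 and -0.08 in CD8 cells, against 0.00 for all genes.

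The mitosis members that differed between the cell types were lower in CD8 than in CD4 cells, while mitosis genes outside the members went both ways. In zinc-fed C57BL/6, 9 members were higher and 14 lower in CD8 cells, against 9.28% and 12.9% of all genes. None of the 19 mitosis members tested was higher and 7 were lower, with a median log2 difference of -1.34. Of 67 mitosis genes tested outside the members, 4 were higher and 11 lower. Of the 7, Bub1b, Ccnb2, Cdk1 and Kif20a lost their calls without C57BL/6 CD8 library 1, without C57BL/6 CD4 library 3 and in a fit of the C57BL/6 libraries alone. Bub1b, Cdk1 and Kif20a also lost them without CD8 library 3, Bub1b and Cdk1 without CD8 library 2, and Cdk1 and Kif20a without CD4 library 2. Birc5, Mki67 and Top2a kept theirs in all of these fits. Mki67 differed by -2.97 ± 0.44 (SE, adjusted p = 3.77e-05) and Birc5 by -3.04 ± 0.43 (SE, adjusted p = 2.16e-05). Members higher in CD8 cells included Mcm3 (1.14), Mcm7 (0.64), Cdt1 (0.96), Ccne1 (1.42) and Cdk4 (0.89) on the log2 scale. The total of 23 fell to 15 without C57BL/6 CD8 library 3.

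In pMT-10 on control water, 4 members were higher and 10 lower in CD8 cells, against 8.94% and 12.8% of all genes. In zinc-fed pMT-10, 3 members were higher (Ccne1, Cdt1 and Mcm7) and 8 lower, against 13.4% and 14.7% of all genes. Here 3 of the 19 mitosis members were lower and none higher, near the share of all genes. Of 67 other mitosis genes, 3 were higher and 7 lower. The Ccne1 call was lost without zinc-fed pMT-10 CD4 library 2. The total of 11 was 7 without zinc-fed pMT-10 CD4 library 1 and 17 in a fit of the libraries of that kind of mouse alone. Cdkn1a was lower in CD8 than in CD4 cells in all 3 kinds of mice, with -3.90 ± 0.69 (SE, adjusted p = 0.000274) in zinc-fed C57BL/6 and -4.62 ± 0.61 (SE, adjusted p = 1.08e-05) in zinc-fed pMT-10, or -5.36 in the latter without zinc-fed pMT-10 CD8 library 3. In pMT-10 on control water its log2 difference was -4.21, or -8.39 and -3.50 without CD8 library 1 and 3. E2f2 was lower in CD8 cells, with log2 differences of -1.67, -1.48 and -1.16 in zinc-fed C57BL/6, pMT-10 on control water and zinc-fed pMT-10. Tk1 was lower as well, with log2 differences of -2.35 in pMT-10 on control water, -1.46 in zinc-fed pMT-10 and -2.33 in zinc-fed C57BL/6, where it was -3.01 without CD8 library 2.

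Other genes of the same processes, from lists of 57 replication, 75 mitosis and 40 G1 control genes, were tested beside the members. Of 53 replication genes tested, 8 rose and none fell in CD4 cells against C57BL/6, and 3 rose and 1 fell in CD8 cells. Of all genes tested, 9.29% rose and 9.40% fell in CD4 cells and 5.68% rose and 3.13% fell in CD8 cells, so that the CD8 count was near that of all genes. Against the transgenic control 11 rose in CD4 and 5 in CD8 cells and none fell, beside 9.38% and 5.10% of all genes that rose and 9.40% and 2.64% that fell. The median log2 change was 0.16 in CD4 and 0.22 in CD8 cells against C57BL/6. Chaf1a, a histone chaperone of new DNA, went from 1.76 ± 0.661 (SD, n = 3) to 14.5 ± 4.43 CPM in CD4 cells, with a log2 change of 3.04 ± 0.59 (SE, adjusted p = 0.000831). Rpa2, a subunit of the protein that coats single-stranded DNA, rose in both cell types, by 1.05 in CD4 and 0.58 in CD8 cells (log2). Nasp, a histone H1 and H3 chaperone, fell in CD8 cells by 0.79.

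Of 67 mitosis genes tested outside the members, 17 rose and 2 fell in CD4 cells and 13 rose and 2 fell in CD8 cells against C57BL/6, with median log2 changes of 1.08 in both, beside 9.29% (rose) and 9.40% (fell) of all genes in CD4 and 5.68% and 3.13% in CD8 cells. Relative to the transgenic control 25 rose and 2 fell in CD4 cells, and 10 rose and 2 fell in CD8 cells, where 9.38% and 9.40% of all genes did so in CD4 and 5.10% and 2.64% in CD8 cells. Cks1b, a small partner of cyclin-dependent kinases, went from 13.7 ± 2.35 to 39.2 ± 7.35 CPM in CD4 cells. Hmmr, a spindle protein, went from 0.171 ± 0.142 to 4.30 ± 1.56 CPM in CD8 cells, and Aspm, of the spindle poles, from 0.187 ± 0.324 to 4.11 ± 1.61 CPM. Smc4, a core subunit of condensin, went the other way in CD4 cells, from 688 ± 127 to 251 ± 12.4 CPM (a log2 change of -1.46 ± 0.13 SE, adjusted p = 1.98e-07), while its condensin partner Ncapd2 rose by 0.83 (log2). Cdc25b, a phosphatase that activates mitotic kinases, fell in CD4 cells by 1.08.

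Of 37 G1 control genes tested outside the members, 9 rose and 2 fell in CD4 cells and 5 rose and 1 fell in CD8 cells against C57BL/6, beside the same 9.29% and 9.40% of all genes in CD4 and 5.68% and 3.13% in CD8 cells. Against the transgenic control 8 rose and 3 fell in CD4 and 7 rose and 2 fell in CD8 cells, beside 9.38% and 9.40%, and 5.10% and 2.64%, of all genes. Cdkn2a, the locus of the inhibitor p16, went from 0.514 ± 0.450 to 15.9 ± 5.07 CPM in CD4 cells. In CD8 cells it had no count in the 6 control libraries and lay between 0.377 and 3.58 CPM in zinc-fed pMT-10. Rbl2 (p130), a retinoblastoma relative that represses E2F targets at rest, went from 152 ± 28.1 to 405 ± 64.2 CPM in CD4 cells. Gadd45g, a stress response gene, went from 14.1 ± 6.63 to 67.4 ± 15.7 CPM in CD4 and from 8.94 ± 5.03 to 61.5 ± 19.6 CPM in CD8 cells. E2f7, a repressing E2F, had no count in C57BL/6 CD8 libraries and was at 2.39 ± 0.715 CPM in zinc-fed pMT-10.

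Genes that mark other cells of the bone marrow were summed in each library, and their part in the results was not tested. Of 14 genes of neutrophils and their precursors, all with counts, the sum was 3.13 to 4.80 CPM in zinc-fed pMT-10 CD4 libraries against 1.52 to 2.55 in zinc-fed C57BL/6 and 0.907 to 1.55 in pMT-10 on control water, and Ly6g, Mmp8 and Fcnb were at 0 in all 9. CD8 controls held at most 2.82 CPM, and there were 0.341, 1.41 and 19.3 CPM in zinc-fed pMT-10 CD8 libraries 1, 2 and 3. Without library 3, 11 members were called in CD8 cells against C57BL/6 and 12 against the transgenic control. The 8 of 14 erythroid genes with counts summed to 32.0 to 42.0 CPM in zinc-fed pMT-10 CD4 libraries against 29.8 to 40.5 in CD4 controls, and to 47.5 to 50.4 against 28.7 to 42.3 in CD8 libraries. Most of this was Tfrc, the transferrin receptor, at a mean of 39.1 CPM in zinc-fed pMT-10 CD8 libraries, with Alas2 and Rhag at 0 there. The 11 of 13 genes of B cells and their precursors were at 5.32 to 16.6 CPM in zinc-fed pMT-10 against 28.3 to 46.5 in CD4 and 33.7 to 39.9 against 57.4 to 87.8 in CD8 libraries, and Pax5 and Rag2 were at 0 in all groups. The 7 of 8 stem and progenitor genes were at 37.7 to 66.3 CPM against 61.0 to 123 in CD4 and 75.3 to 116 against 85.3 to 168 in CD8 libraries. The 6 of 7 plasma cell genes were at 413 to 475 CPM in zinc-fed pMT-10 against 255 to 335 in CD4 libraries. In CD8 libraries they were at 135 to 178 against 70.6 to 127 CPM. These sums came mostly from Xbp1, Prdm1 and Irf4. Prdm1 had a mean of 209 CPM in zinc-fed pMT-10 CD4 libraries, against 74.1 in zinc-fed C57BL/6 and 67.6 in pMT-10 on control water. Its CD8 means were 38.7 against 2.18 and 0.596 CPM. Jchain was at 0 in zinc-fed pMT-10 CD4 libraries, and Sdc1 had a lower mean there than in both controls. Sdc1 and Tnfrsf17 were at 0 in all CD8 groups. All 8 natural killer cell genes had counts and summed to 1440 to 2450 against 131 to 413 CPM in CD4 and 1292 to 1474 against 707 to 965 in CD8 libraries, mostly from Nkg7, with Ncr1 and Cma1 at 0 in zinc-fed pMT-10. Klrb1c, Klrk1, Klrc1 and Klrd1 went the other way in CD4 cells, with means of 9.44, 3.02, 2.82 and 0.765 CPM in zinc-fed pMT-10. Those means were 39.9, 13.7, 8.15 and 4.06 CPM in zinc-fed C57BL/6 and 170.8, 38.1, 26.6 and 8.03 in pMT-10 on control water. The 9 of 10 monocyte genes were at 304 to 337 against 192 to 275 CPM in CD4 and 194 to 202 against 150.1 to 221 in CD8 libraries, and the 9 dendritic cell genes at 83.7 to 138 against 123 to 174 and 178 to 247 against 207 to 282.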

How the data were processed

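RNA of sorted CD4 and CD8 T cells was measured by Ion AmpliSeq, a transcriptome-wide panel that reads 1 amplicon per mouse gene, per the labels. The authors deposited whole read counts per gene, without normalization. The build was mm10 per the submitters' processing notes, while aligner and counter were not given in the sources used here. One model was fitted with edgeR 4.0.16 (R 4.3.3; quasi-likelihood, robust, TMM factors, filterByExpr) to 6 group means over 18 libraries, with Benjamini-Hochberg adjustment over 11316 genes and calls at an adjusted p under 0.05. CPM use TMM-scaled library sizes. The fit was tested on simulated data. Alternatives were DESeq2 1.42.0, RLE factors, library size only, no filter, only the libraries concerned and leaving out each library. Members and gene lists were chosen with earlier results of these data known. Values per library were printed for 12 of the 21 members called the same way against both controls, those with the lowest ranks of p. They were also printed for the 3 largest changes of each role against C57BL/6 in each cell type. Mcm6, Cdk2 and Cdkn1b were printed outside this rule. Other genes were the called ones with the lowest p of each list. Positions are GRCm38 (GENCODE vM21) or, for promoters, RefSeq GRCm38.p6. Library numbers within a group carry no meaning.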

Additional observations from a re-analysis of the deposited data

Results flagged for a closer look

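For 3 members, an interaction term in edgeR's quasi-likelihood fit gave a difference between the CD8 and the CD4 change. Against zinc-fed C57BL/6, 2 of 45 members passed, where 5.49% of all genes did. Against pMT-10 on control water, 1 of 45 passed, where 3.78% of all genes did. Neither count was above the share of all genes. Birc5 and Cdk2 passed only against zinc-fed C57BL/6, and Top2a only against pMT-10 on control water. Against zinc-fed C57BL/6, the CD8 change exceeded the CD4 change of Birc5 by 2.11 ± 0.56 (SE, log2, adjusted p = 0.0298), with 1.72 to 2.39 when 1 library was left out and the call lost in 6 of 12 such fits. Cdk2 fell in CD4 cells (log2 -0.64) and rose in CD8 cells (log2 0.60), and the difference was 1.25 ± 0.26 (SE, log2, adjusted p = 0.00725), with an adjusted p of at most 0.0342 over the 12 fits that left out 1 library. Against pMT-10 on control water, the difference of Top2a was 1.36 ± 0.37 (SE, log2, adjusted p = 0.0448), with 1.17 to 1.54 when 1 library was left out and the call lost in 11 of 12 such fits. In zinc-fed pMT-10 CD8 cells all 3 libraries lay above all zinc-fed C57BL/6 CD8 libraries for Birc5, Cdk2 and Top2a.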

How the results depend on the processing

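No called member changed direction under any alternative run. Leaving out 1 library gave 17 to 25 called members in CD4 cells against pMT-10 on control water (28 with all libraries), 15 to 22 between CD8 and CD4 cells in zinc-fed C57BL/6 (23), 7 to 11 in zinc-fed pMT-10 (11), 1 to 4 for the CD8 change minus the CD4 change against C57BL/6 (2) and 0 to 1 against the transgenic control (1). With the libraries of zinc-fed pMT-10 alone, 17 members differed between CD8 and CD4 cells. The CD8 change minus the CD4 change was called for 5 members by DESeq2, 4 with RLE factors and 5 without the low-count filter against C57BL/6. Against the transgenic control it was called for 3 by DESeq2, 2 with library size only and 3 without the filter. Without the filter, 1 member in CD4 and 2 in CD8 cells differed between the 2 controls. Calls held in every fit without 1 library for 12 of 18 members in CD4 and 9 of 15 in CD8 cells against C57BL/6, and for 14 of 28 and 10 of 16 against the transgenic control.

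Scaling by library size only moved the median log2 change of all genes by -0.11 in CD4 cells against C57BL/6 and -0.15 against the transgenic control, and by 0.16 and 0.18 for the CD8 change minus the CD4 change. Higher and lower genes in CD4 cells then went from 1051 and 1064 to 831 and 1448 against C57BL/6, and from 1061 and 1064 to 770 and 1688 against the transgenic control. In CD8 cells against C57BL/6 they went from 643 and 354 to 731 and 245. Between CD8 and CD4 cells they went from 1512 and 1666 to 1845 and 1354 in zinc-fed pMT-10 and from 1012 and 1446 to 750 and 1673 in pMT-10 on control water. For the CD8 change minus the CD4 change they went from 386 and 235 to 648 and 120 against C57BL/6 and from 276 and 152 to 537 and 76 against the transgenic control. Between the controls, 16 genes in CD4 cells became 34 by DESeq2 and 83 without the filter, and 11 in CD8 cells became 41 and 107. For the CD8 change minus the CD4 change, 621 genes became 1068 by DESeq2, 1055 without the filter and 410 with the libraries concerned, and 428 became 819 and 847 against the transgenic control. With CD8 libraries alone, 997 genes against C57BL/6 became 613 and 876 against the transgenic control became 559. No paired analysis was possible because the labels do not say which CD4 and CD8 libraries came from the same mouse. Genes under a few CPM, such as Bub1, Ccne2 and Cdc6, rest on few reads, and their changes carry large errors.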
